A study of Mus musculus with 6 samples.

Results

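The genes of glycolysis and of the response to low oxygen were described in RNA-seq data from mouse 3T3 cells, which are fibroblasts derived from Swiss albino mouse embryos and are labelled as malignant. The cells were one clone that carries a lentiviral cassette for human PARG (hPARG), together with the fluorescent protein mClover3, under the TetOne promoter. Of 6 cultures of this clone, 3 received 500 ng/ml doxycycline for 72 h (hPARG) and 3 received none (control). All 6 carry the cassette, and none of them received doxycycline without it, so the effects of the drug and of hPARG cannot be told apart. The 40 members were chosen by name from the 41819 genes of the table, as 24 genes of glycolysis, 6 genes that sense oxygen through the hypoxia-inducible factors (HIF) and 10 other targets of HIF. The rule that selects them uses no measured value.

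Glycolysis splits glucose into pyruvate, which lactate dehydrogenase reduces to lactate or mitochondria oxidise further. Hexokinase, phosphofructokinase and pyruvate kinase carry out its practically irreversible steps. When oxygen is plentiful, prolyl hydroxylases of the EGLN family mark the HIF alpha subunits, the VHL protein binds the marked subunits and they are degraded. When oxygen falls, the alpha subunit persists, pairs with ARNT and activates genes of glucose import, glycolysis, mitochondrial turnover and collagen modification. The HIF alpha subunits are controlled largely at the protein level, which RNA counts do not measure. PARG removes poly(ADP-ribose) from proteins, and the polymer is built from NAD+, the cofactor that glyceraldehyde-3-phosphate dehydrogenase also needs.

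Count totals were between 21619908 and 25263818 per culture, and 3 counts, taken as the floor of detection, stood for 0.117 to 0.141 CPM (counts per 1000000 of the normalised library total). The genes of fibroblasts fixed as markers were all detected and summed to 7215 to 8400 CPM in the control and 8306 to 9534 CPM in hPARG cultures, whereas the epithelial, leukocyte and endothelial lists summed to at most 1.41 CPM in any culture. The mouse Parg gene had 1246, 1317 and 1032 counts in control cultures 1 to 3 and 1095, 1400 and 1096 in hPARG cultures 1 to 3, with a log2 fold change of 0.04 (SE 0.112), and the human transgene was not analysed here. The cultures numbered 2 stood apart from the others in both groups, at 21.6 and 24.7 on a first principal component that held 42% of the variance, against -27.4 to -3.17 for the remaining 4. Control culture 3, at -27.4, lay furthest from 0, with hPARG cultures 1 and 3 at -10.4 and -5.29 and control culture 1 at -3.17. Values are therefore given culture by culture, and some are also given without the cultures numbered 2.

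HIF binds DNA at the core letters ACGTG or GCGTG, and the RefSeq windows from 250 bases before to 50 bases after each annotated start (GRCm38.p6) were searched for both cores on both strands. A window was found for 35 of the 40 members, and none for Bnip3l, Epas1, Ero1l, Ndrg1 and Slc2a3. At least 1 core was present in the windows of 31 of these 35 genes, or in 39 of their 50 windows (78%), whereas 43.8% of all 32851 windows of the table held one. The core ACGTG alone was present in 52% of the members' windows and in 19.6% of all windows. These letters are short and their presence is a description of the sequence, not of binding. Both cores hold the letters CG, and the windows compared were not matched for base composition or expression. The windows of 4 members are shown: Pgk1 and Ldha as the most abundant glycolytic genes with ACGTG on both strands, Bnip3 as the most abundant of the other targets, and P4ha1 as the member whose interval of change did not include 0. Each is written 5′ to 3′ on the strand of the gene, with each core, or its reverse complement CACGT or CACGC, in capitals. The letters CACGTG hold ACGTG on both strands and were counted on each.

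The Pgk1 window lies on the plus strand at chrX:106186850-106187149, that of Ldha on the plus strand at chr7:46845554-46845853, that of Bnip3 on the minus strand at chr7:138909457-138909756 and that of P4ha1 on the plus strand at chr10:59323046-59323345.
Pgk1: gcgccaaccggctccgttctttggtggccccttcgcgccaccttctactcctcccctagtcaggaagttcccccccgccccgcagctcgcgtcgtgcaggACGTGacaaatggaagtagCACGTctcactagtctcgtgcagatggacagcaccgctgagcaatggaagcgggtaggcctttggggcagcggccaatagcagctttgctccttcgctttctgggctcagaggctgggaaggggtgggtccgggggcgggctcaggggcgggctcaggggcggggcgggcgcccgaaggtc
Ldha: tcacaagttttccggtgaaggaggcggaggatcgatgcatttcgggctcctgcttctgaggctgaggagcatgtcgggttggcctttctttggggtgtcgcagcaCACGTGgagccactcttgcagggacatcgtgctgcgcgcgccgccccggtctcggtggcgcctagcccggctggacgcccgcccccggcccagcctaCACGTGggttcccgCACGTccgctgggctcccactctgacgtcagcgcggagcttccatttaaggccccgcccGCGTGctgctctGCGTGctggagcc
Bnip3: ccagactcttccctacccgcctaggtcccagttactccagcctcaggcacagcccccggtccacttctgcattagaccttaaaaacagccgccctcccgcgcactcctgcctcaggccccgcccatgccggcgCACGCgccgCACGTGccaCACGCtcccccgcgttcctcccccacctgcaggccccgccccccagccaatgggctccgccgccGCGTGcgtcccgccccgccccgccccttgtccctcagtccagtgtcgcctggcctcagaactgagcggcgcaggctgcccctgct
P4ha1: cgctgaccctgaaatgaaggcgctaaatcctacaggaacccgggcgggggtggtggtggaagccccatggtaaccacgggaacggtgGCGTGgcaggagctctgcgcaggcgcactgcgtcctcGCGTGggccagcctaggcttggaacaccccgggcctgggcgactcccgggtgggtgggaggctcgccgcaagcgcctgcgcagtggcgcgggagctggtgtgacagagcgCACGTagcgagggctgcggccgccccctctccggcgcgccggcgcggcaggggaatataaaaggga
In this count ACGTG occurred at 2 strand positions in the Pgk1 window, 5 in Ldha, 2 in Bnip3 and 1 in P4ha1, and GCGTG at 0, 2, 3 and 2.

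The levels of the members were read from the deposited RPKM values, which are per length and can be compared between genes. Pgk1 (phosphoglycerate kinase, which makes the first ATP of the pathway) was the highest, at 929.5 ± 88.6 RPKM (SD, n = 6), and its lowest culture (812) lay above the highest culture of Gapdh (746). Gapdh, Pgam1, Ldha, Pkm and Aldoa followed at 702, 605, 572, 494 and 473 RPKM, and the range of each overlapped that of the next. Tpi1 (348), Eno1 (240) and Gpi1 (113) came after them without overlap between neighbours. Bnip3, a mitochondrial protein of mitophagy and the highest of the other HIF targets, had 56.2 ± 10.7 RPKM and also stood apart from its neighbours. From Slc16a1 (33.5) through Egln1 (29.2), P4ha1 (25.3) and Hif1a (22.5) down to Ndrg1 (8.20), each gene overlapped the next. The order rests on the authors' gene lengths, and with CPM divided by all GENCODE exon bases Gapdh ranked 6 in place of 2, while Pgk1 stayed at 1.

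Summed by step, the pathway was uneven. The 2 glucose importers together had 19.9 ± 1.51 RPKM in the control and 20.0 ± 0.986 in hPARG cultures, hexokinases 15.7 ± 3.86 and 16.4 ± 3.31, and phosphofructokinases 40.6 ± 5.46 and 45.9 ± 4.55 (SD, n = 3). From aldolase to lactate dehydrogenase, all steps lay between 218 and 1024 RPKM in every culture. The lowest of these values, enolase in control culture 3, was above the highest phosphofructokinase value of 50.7. The enolase step here holds Eno1 and Eno2 only, and its place among the steps is uncertain, because Eno1b, nearly identical to Eno1 and described below, had 429 RPKM and Eno3, another enolase, 35.6. Lactate exporters returned to 36.1 ± 3.20 and 31.0 ± 3.70 RPKM. The 24 glycolysis genes together took 1.17% ± 0.0845 of all counts in the control and 1.18% ± 0.0485 in hPARG cultures.

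**Figure D1:**
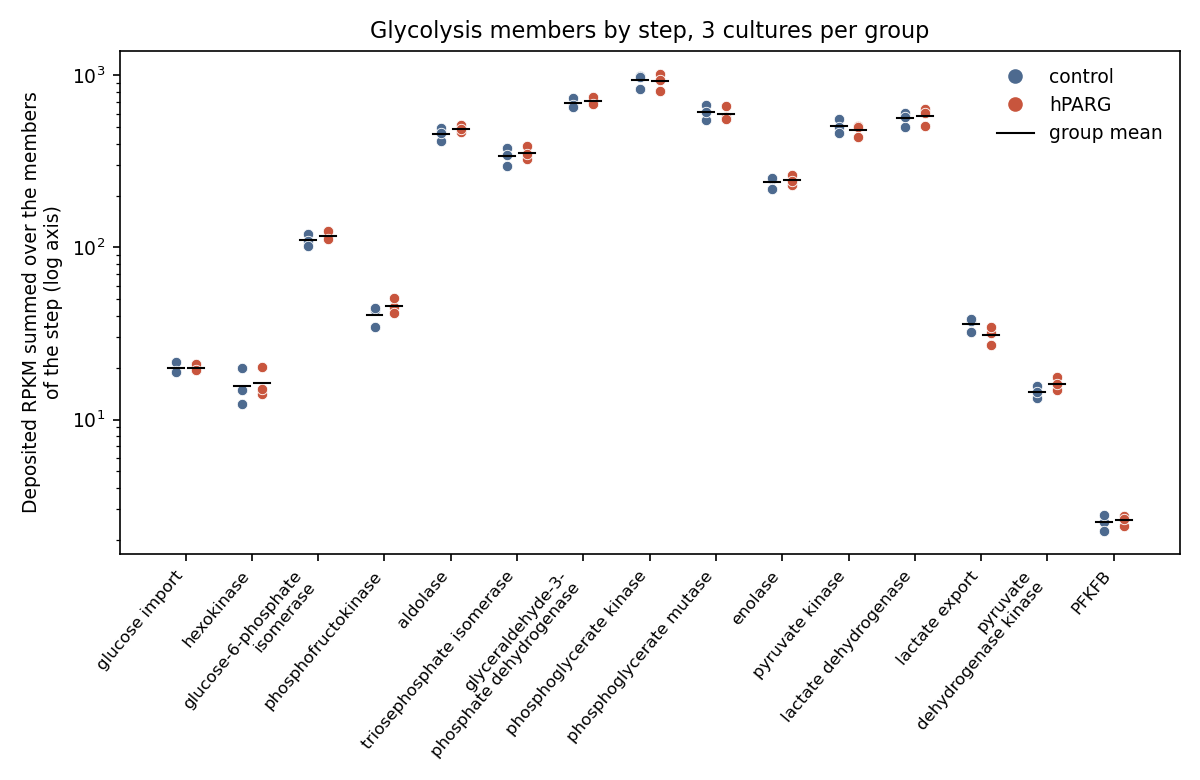
Deposited RPKM summed over the member genes of each step (vertical log axis) for the steps of glycolysis (horizontal), with a point per culture, control in blue and hPARG in red, and a line at each group mean. The steps from aldolase to lactate dehydrogenase sit between 218 and 1024 RPKM, above hexokinase at 12.3 to 20.2 and phosphofructokinase at 34.4 to 50.7, and the groups overlap at nearly the same height.

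Within most steps 1 gene carried nearly all of the RNA. Slc2a1 (the glucose transporter GLUT1) made up 99.6% of the import RPKM in both groups, Aldoa 99.9% of aldolase, Ldha at least 99.9% of lactate dehydrogenase in every culture, and Slc16a1 (the lactate transporter MCT1) 99.49% to 99.75% of export. The HIF-associated exporter Slc16a3 (MCT4) was nearly absent, at 0.124 RPKM. Phosphofructokinase was mixed, with Pfkl at 45.2% ± 0.882 and 45.9% ± 0.625, Pfkm at 40.03% ± 0.818 and 40.4% ± 1.00, and Pfkp at 14.8% ± 1.26 and 13.7% ± 0.850 in control and hPARG cultures.

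Hexokinase was the only mixed step whose shares did not overlap between the groups. Hk2, the hexokinase known as a HIF target, made up 26.5%, 29.7% and 27.7% of hexokinase RPKM in control cultures 1 to 3 and 30.3%, 30.7% and 33.1% in hPARG cultures 1 to 3, and Hk1 the remainder. The lowest hPARG culture lay just above the highest control culture, a gap smaller than the spread within either group. With 3 cultures per group the smallest p of an exact permutation test is 0.1. The share was singled out after the values were seen. Neither gene passed the test on counts.

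No member passed the test for a difference between hPARG and control cultures. Of 40 members 38 had enough counts for edgeR's quasi-likelihood test, and 0 were called at a false discovery rate (FDR) under 0.05, when 10 of all 11509 tested genes were called (0.0869%) and the calls split into 0.00869% of tested genes with higher and 0.0782% with lower counts in hPARG cultures. With the replicate number as a block, 1 member was called, P4ha1, against 2.87% of all tested genes, and whether the numbers pair the cultures is not given by the labels. At an unadjusted p under 0.05 there was 1 member, P4ha1, against 3.95% of all tested genes. DESeq2 called 0 members, and 52 of all 11509 tested genes. Without both cultures numbered 2, edgeR called 0 members, and 40 of 11589 tested genes. Because these are bulk samples, fewer cells of a type and less RNA per cell cannot be told apart. The 95% interval of the change lay within 1.5-fold in both directions for 29 of the 38 members (76.3%, against 71.1% of all tested genes) and within 2-fold for 33 (86.8%, against 90.8%).

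The estimates leaned towards higher values in hPARG cultures. The log2 fold change was above 0 in 28 of the 38 members (73.7%), with a median of 0.075, against 50.9% and a median of 0.004 over all tested genes. Among glycolysis genes it was above 0 in 18 of 23, with a median of 0.084 and a range from -0.31 to 0.41. This median was 0.053 without control culture 2 and 0.143 without control culture 1. For the other HIF targets it was above 0 in 8 of 9, with a median of 0.037. That median was -0.017 without control culture 2, 0.169 without control culture 1 and 0.21 without hPARG culture 2. Among oxygen-sensing genes it was above 0 in 2 of 6, with a median of -0.025, which turned to 0.078 without control culture 2. These medians are descriptions and carry no test.

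**Figure D2:**
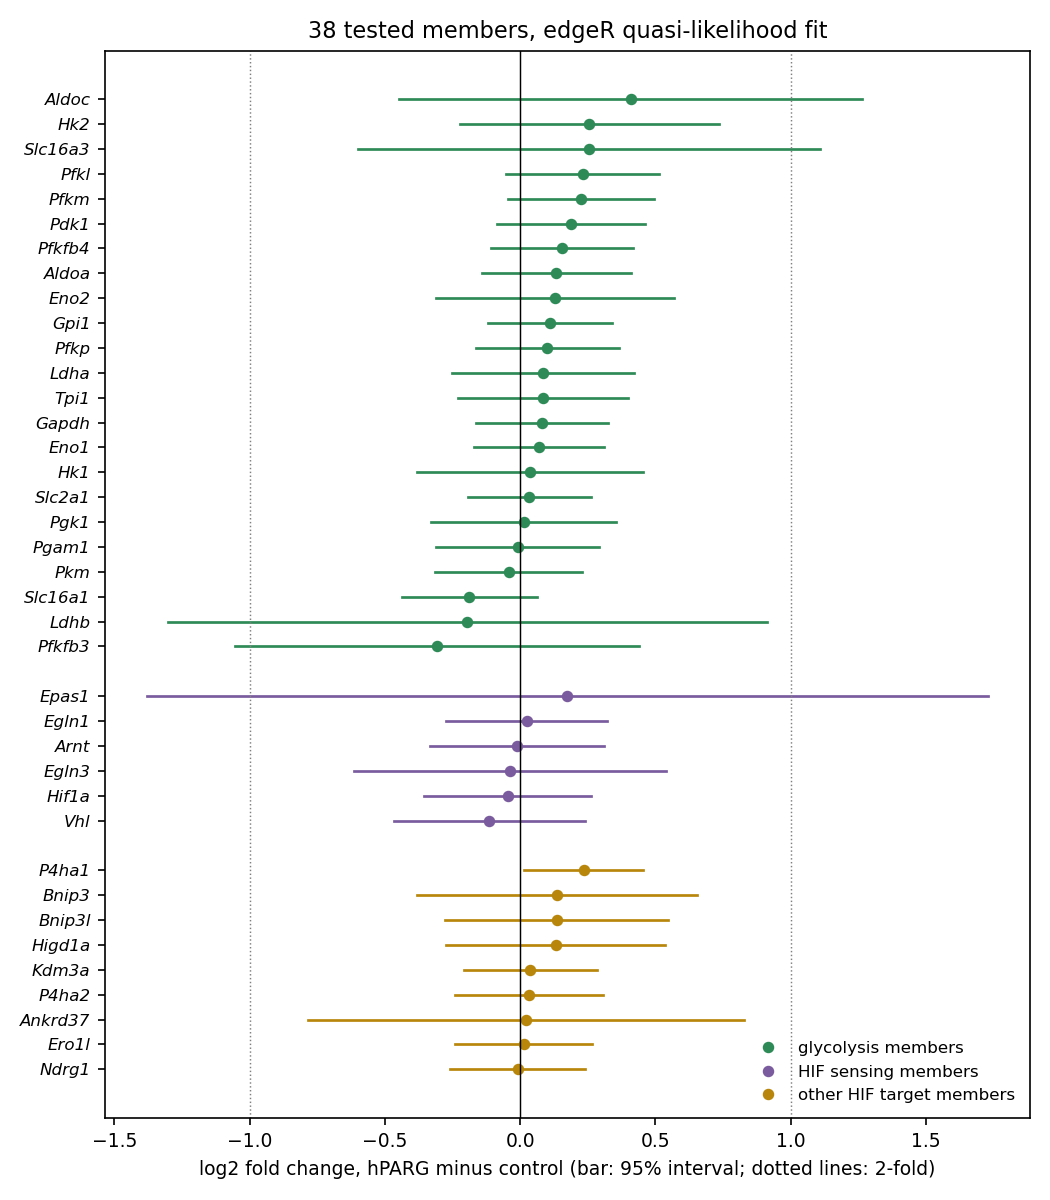
Log2 fold change of hPARG against control (horizontal axis) for the 38 tested members, ordered within glycolysis, oxygen-sensing and other HIF target genes. Points are edgeR estimates, bars 95% intervals and dotted lines 2-fold. The only interval that does not include 0 is that of P4ha1, against 3.95% of all tested genes.

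The most abundant glycolysis genes differed little. Pgk1 (chromosome X, 106187100 to 106203699, GRCm38) had 1987, 1618 and 2047 CPM in control cultures 1 to 3 and 2099, 1628 and 1974 in hPARG cultures 1 to 3. The low value in each group was that of culture 2, and the groups overlapped almost fully. The fitted fold was 1.01 (95% interval 0.796 to 1.28). Gapdh, the NAD+-dependent dehydrogenase, had 1471, 1300 and 1358 CPM in the control and 1459, 1484 and 1425 in hPARG cultures, with a fold of 1.06 (0.894 to 1.25). Its hPARG values lay within the control range but for culture 2. Pgam1, the phosphoglycerate mutase, had 1285, 1026 and 1215 CPM against 1288, 1087 and 1127, a fold of 0.993 (0.806 to 1.22).

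Ldha, which turns pyruvate into lactate, had 1701, 1380 and 1686 CPM in the control and 1830, 1427 and 1798 in hPARG cultures, a fold of 1.06 (95% interval 0.839 to 1.34). Both cultures numbered 2 were again the lowest of their groups. Pkm, the pyruvate kinase gene of these cells, had 2284, 1992 and 1985 CPM against 2131, 2062 and 1891, a fold of 0.971 (0.805 to 1.17). Of the exon bases of Pkm, 15.3% overlap another annotated gene on the same strand, whose reads cannot be told apart there. Aldoa had 1203, 996 and 1178 CPM in control and 1292, 1154 and 1258 in hPARG cultures, and its fold was 1.10 (0.906 to 1.33).

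Counts for Eno1, the enolase of most tissues, were shared with a near-identical gene, Eno1b, whose transcript matches that of Eno1 at 99.5% over 1736 bases and held 116% as many counts. Eno1 had 766, 752 and 692 CPM in control cultures 1 to 3 and 724, 808 and 786 in hPARG cultures 1 to 3. Eno1 took 45.8%, 46.9% and 44.3% of their joint counts in the control and 42.5%, 46.1% and 52.7% in hPARG cultures, so that hPARG cultures 1 and 3 lay at opposite ends. Summed over both genes the CPM was 1674, 1604 and 1562 in the control and 1701, 1753 and 1490 in hPARG cultures, with a fold between 0.852 and 1.22 at 95%. The separate levels of the pair are uncertain, since the way the counting placed reads that match both was not tested.

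Phosphofructokinase genes had higher estimates in hPARG cultures, and 1 of them did not overlap between the groups in CPM. Pfkl, the liver-type subunit (chromosome 10, 77986947 to 78010083), had 81.3, 79.5 and 65.0 CPM in control cultures 1 to 3 and 85.7, 96.4 and 83.0 in hPARG cultures 1 to 3. Every hPARG culture was above every control culture, though hPARG culture 3 and control culture 1 were close. The fold was 1.17 (95% interval 0.965 to 1.43, FDR 0.999). Pfkm, the muscle-type subunit, had 62.6, 60.4 and 52.0 CPM against 68.5, 74.2 and 62.0, a fold of 1.17 (0.969 to 1.41) with the groups overlapping. Pfkp had a fold of 1.07 (0.893 to 1.29).

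The PFKFB regulators among the members were rare, at 2.15 RPKM for Pfkfb4 and 0.416 for Pfkfb3, and their relative Pfkfb1, of the further list, had 6.25. Pfkfb4, a bifunctional enzyme that makes and removes the activator fructose-2,6-bisphosphate, had 8.55, 8.04 and 7.78 CPM in control cultures and 8.71, 9.27 and 9.17 in hPARG cultures. Its groups did not overlap, with a fold of 1.11 (0.929 to 1.34). Pfkfb3, its relative, had 2.22, 3.91 and 2.22 CPM against 1.51, 2.47 and 2.75, and the interval of its fold, 0.481 to 1.36, reached past 2-fold on the low side. Pfkl, Pfkfb4 and P4ha1 were the 3 members without overlap in CPM (7.89% of those tested), all higher in hPARG cultures. Over all tested genes 9.62% did not overlap, 3.61% higher and 6% lower. In the deposited RPKM each of these 3 members overlapped between the groups, so their separation depends on the scaling. For Pfkl, hPARG culture 3 had 19.2 RPKM and control culture 2 had 20.0. For Pfkfb4, hPARG culture 1 had 2.16 RPKM and control culture 1 had 2.18.

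Some other glycolysis genes had estimates further from 1. Hk2 had 25.1, 36.8 and 22.8 CPM in the control and 27.8, 39.6 and 33.6 in hPARG cultures, a fold of 1.19 (95% interval 0.857 to 1.66). Both of its highest values came from cultures numbered 2, and without these cultures its log2 fold change was 0.36 in place of 0.26, with FDR 0.448. Pdk1, a kinase that switches off pyruvate dehydrogenase and a known HIF target, had 87.3, 72.5 and 83.9 CPM in the control and 100.4, 82.9 and 94.3 in hPARG cultures, a fold of 1.14 (0.943 to 1.38). Slc16a1 had the opposite sign, at 177, 177 and 160 CPM against 154, 162 and 135, a fold of 0.878 (0.738 to 1.04). Only its hPARG culture 2 reached into the control range.

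Some glycolysis genes had too few counts for a narrow interval. Aldoc had between 0.754 and 2.29 CPM, Ldhb between 0.183 and 0.618 and Slc16a3 between 0.424 and 0.820, and each interval reached past 2-fold. Slc2a3 (GLUT3) was not tested, with counts of 9, 10 and 5 in control cultures 1 to 3 and of 9, 12 and 7 in hPARG cultures 1 to 3. For the remaining tested glycolysis genes (Slc2a1, Hk1, Gpi1, Tpi1 and Eno2) the folds were between 1.02 and 1.09, with intervals between 0.768 and 1.48.

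Fold estimates of the oxygen-sensing genes lay between 0.924 and 1.13, and the intervals of 4 of the 6 lay within 1.5-fold. Hif1a (chromosome 12, 73901375 to 73947530), the oxygen-labile subunit, had 131, 156 and 119 CPM in control cultures 1 to 3 and 120, 146 and 127 in hPARG cultures 1 to 3. Culture 2 was the highest in each group, and the fold was 0.968 (95% interval 0.782 to 1.20). Arnt, its partner, had 39.97, 52.7 and 43.1 CPM against 41.8, 50.7 and 42.2, a fold of 0.992 (0.795 to 1.24). Epas1, which encodes HIF-2 alpha, was near the floor, at 0.663, 0.473 and 0.0943 CPM against 0.504, 0.206 and 0.734, and its interval ran from 0.384 to 3.31.

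Egln1, the main prolyl hydroxylase, had 114, 123 and 103 CPM in the control and 115, 131 and 99.9 in hPARG cultures, a fold of 1.02 (95% interval 0.828 to 1.25). Egln3, a hydroxylase that HIF itself induces, had 2.42, 1.51 and 1.93 CPM against 2.02, 1.69 and 2.02, a fold of 0.974 (0.653 to 1.45). Vhl, whose protein recognises hydroxylated HIF, had 33.4, 27.4 and 34.7 CPM against 34.2, 24.5 and 29.6, a fold of 0.924 (0.723 to 1.18). By RPKM, Hif1a stood at 22.5 ± 3.14 and Epas1 at 0.0742 ± 0.0412 (SD, n = 6), so the alpha subunit transcript of this clone was almost entirely Hif1a.

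Of the other HIF targets, and of all 38 tested members, P4ha1 had the only interval without 0, against 455 of all 11509 tested genes (3.95%). It encodes the catalytic subunit of collagen prolyl 4-hydroxylase (chromosome 10, 59323296 to 59373304), and its promoter window is shown above. It had 110.5, 100.4 and 102.0 CPM in control cultures 1 to 3 and 129.3, 122.3 and 116.5 in hPARG cultures 1 to 3. In CPM all hPARG values were above all control values, with a gap about as wide as the SD of either group (5.47 and 6.39). In the deposited RPKM the groups met, with hPARG culture 3 (25.00) just below control culture 1 (25.08). The fold was 1.18 (95% interval 1.01 to 1.37) and the FDR 0.999. Without both cultures numbered 2 its log2 fold change was 0.21 in place of 0.23, with FDR 0.701. Its relative P4ha2 had a fold of 1.02 (0.846 to 1.24).

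Of the 9 fibroblast markers, 4 did not overlap between the groups in CPM either, against 9.62% of all tested genes. Col1a1, Col3a1 (fibrillar collagens, the substrates of prolyl 4-hydroxylase) and Thy1 were higher without overlap in hPARG cultures, with log2 fold changes of 0.58, 0.39 and 0.30, and Pdgfra lower without overlap, at -0.40. Their FDR values were between 0.946 and 0.999. In RPKM, Col1a1 and Col3a1 overlapped between the groups, while Thy1 and Pdgfra did not. The summed CPM of the list overlapped between the groups as given above. With the replicate number as a block all 4 were called, at FDR 0.000135 for Col1a1, 0.00475 for Col3a1, 0.0105 for Thy1 and 0.00532 for Pdgfra, as was Fn1 (fibronectin) at 0.00834, against 2.87% of all tested genes. Col1a2, the most abundant fibrillar collagen of the list, overlapped between the groups. It had 1934, 2382 and 1615 CPM in the control and 2072, 2706 and 1856 in hPARG cultures. Its log2 fold change was 0.16, with FDR 0.999 without the block and 0.113 with it. The part of the fibroblast markers in the P4ha1 values was not tested.

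Bnip3 (chromosome 7, 138890836 to 138909519) had 122, 77.5 and 127 CPM in the control and 132, 90.5 and 136 in hPARG cultures, a fold of 1.10 (95% interval 0.768 to 1.57). In each group culture 2 was far below the other two, by more than the groups differed. Of its exon bases 22.3% overlap a gene on the other strand, and the strand setting of the counting is not given in the sources used here. Bnip3l, its relative in mitophagy, and Higd1a, a mitochondrial protein, had folds of 1.10 (0.825 to 1.46) and 1.10 (0.828 to 1.45). Kdm3a, an oxygen-dependent histone demethylase, and Ero1l, an oxidase of the endoplasmic reticulum, had folds of 1.03 (0.865 to 1.22) and 1.01 (0.847 to 1.20). Ndrg1 had a fold of 0.993 (0.835 to 1.18) and Ankrd37 of 1.01 (0.581 to 1.77). Genes on the other strand also overlap 22.5% of the exon bases of Higd1a and 26.4% of those of Ankrd37, so these counts carry the same uncertainty as those of Bnip3. Car9, carbonic anhydrase 9, for which control cultures 1 to 3 held 4, 1 and 4 counts and hPARG cultures 1 to 3 held 4, 9 and 2, was near the floor of 3 counts and was not tested.

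**Figure D3:**
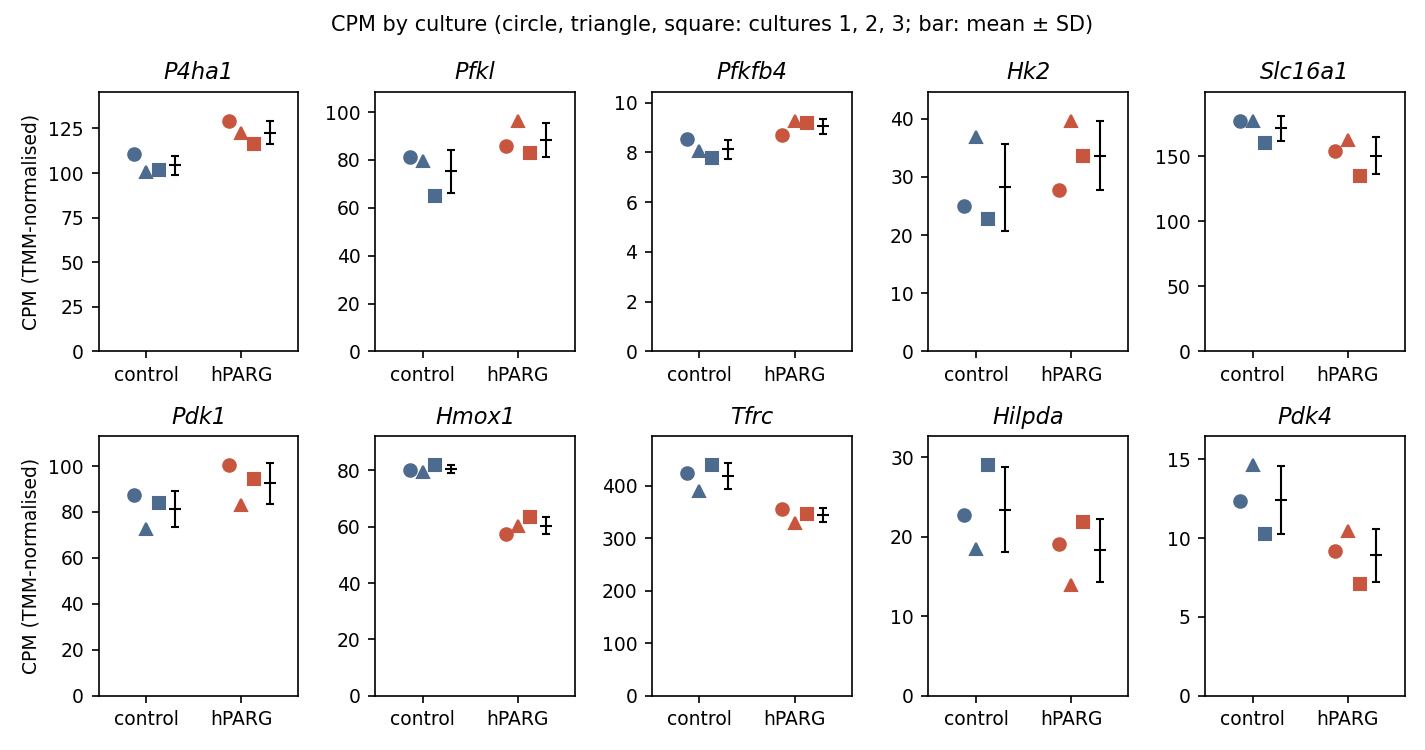
TMM-normalised CPM (vertical axes from 0) in each culture for 6 members and 4 further genes of the pathways, control in blue and hPARG in red, with circles, triangles and squares for cultures 1, 2 and 3 and black bars for mean ± SD. P4ha1, Pfkl and Pfkfb4 are higher and Hmox1, Tfrc and Pdk4 lower or mostly lower in hPARG cultures. None of the genes shown passed FDR 0.05 in the edgeR fit without the replicate block. With the block P4ha1, Hmox1, Tfrc, Hilpda and Pdk4 passed.

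Several members separated the cultures by number more than by group. Both cultures numbered 2 were below the other 4 for 13 of the 38 tested members (34.2%, against 25.5% of all tested genes): Aldoa, Tpi1, Pgk1, Pgam1, Eno2, Ldha, Pdk1, Egln3, Vhl, Bnip3, Bnip3l, Ankrd37 and Higd1a. They were above the other 4 for 7 (18.4%, against 29.1%): Hk1, Hk2, Pfkp, Hif1a, Arnt, Egln1 and Ero1l. Without these cultures the log2 fold change was 0.11 for Bnip3 in place of 0.14, 0.10 for Bnip3l in place of 0.14, 0.17 for Higd1a in place of 0.13, 0.04 for Eno2 in place of 0.13 and -0.03 for Ankrd37 in place of 0.02. Within the same 2 cultures Hif1a was at its highest while Pgk1, Ldha and Bnip3 were at their lowest.

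These deviations followed transcript length, taken as the ratio of counts to deposited RPKM. Over the 38 members the deviation of a culture from its group mean had a Spearman correlation with length of 0.709 in control culture 2 and 0.442 in hPARG culture 2, and of -0.664 to -0.281 in the remaining cultures. Over all 11509 tested genes the values were 0.611, 0.604 and -0.587 to -0.288. The members share a culture, its depth and its group mean, so the points are not independent. The part of length in the level of any member was not tested. With a length correction 0 members passed FDR 0.05 as well, and 28 of all 11509 tested genes did.

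**Figure D4:**
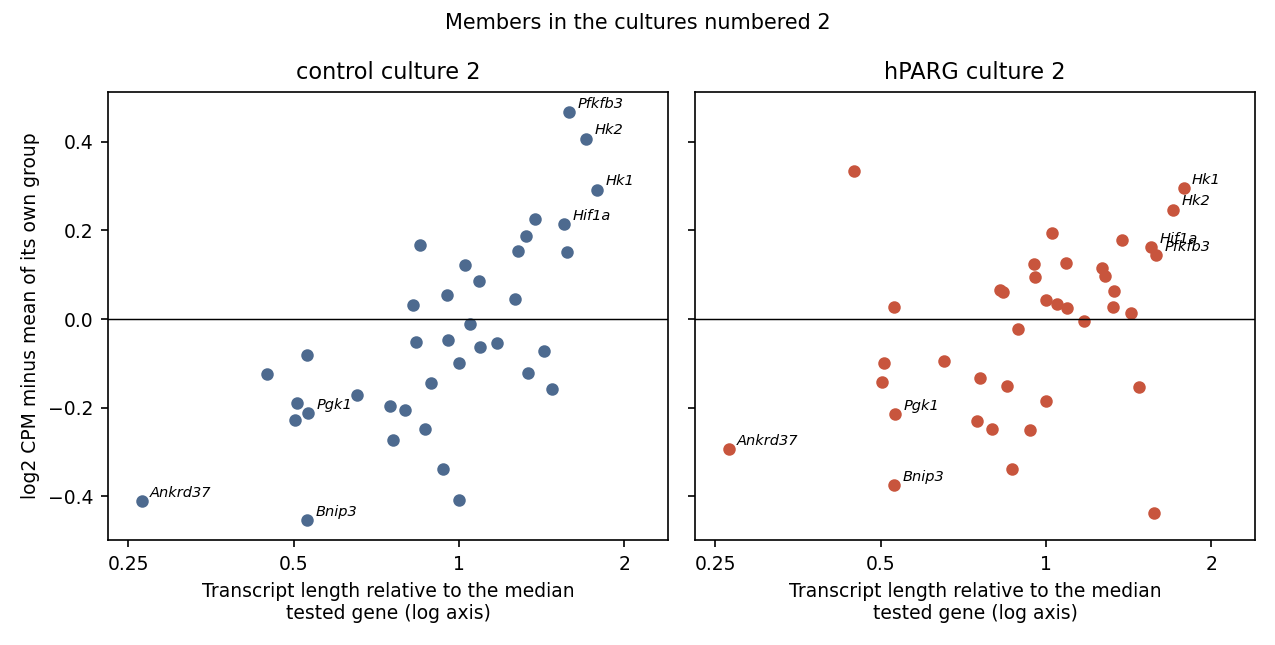
Difference of log2 CPM from the mean of its own group (vertical axis) against transcript length relative to the median tested gene (horizontal log axis) for the 38 tested members, in control culture 2 (left) and hPARG culture 2 (right). Short members such as Ankrd37, Bnip3 and Pgk1 lie below 0 and long ones such as Hk1 and Hk2 above 0 in both panels, with Spearman correlations of 0.709 and 0.442.

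Genes of the same pathways outside the members were read from lists of 37 glycolysis and branch genes, 13 oxygen-sensing genes and 31 HIF targets. None of the 24, 12 and 27 of them that were tested passed FDR 0.05 by edgeR without the block (0.0869% of all tested genes). With the replicate block 1, 0 and 4 passed, against 2.87% of all tested genes. An unadjusted p under 0.05 without the block was found for 1, 0 and 3, against 3.95% of all tested genes. The log2 fold change was above 0 in 14, 9 and 13 of them (58.3%, 75.0% and 48.1%), against 50.9% of all tested genes. Against 9.62% of all tested genes, 1 of the 24 glycolysis and branch genes (4.17%, lower in hPARG cultures), 0 of the 12 oxygen-sensing genes and 6 of the 27 HIF targets (22.2%, 2 higher and 4 lower) did not overlap between the groups.

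Hmox1, the haem-degrading oxygenase, had 80.1, 79.5 and 81.9 CPM in control cultures 1 to 3 and 57.5, 60.2 and 63.5 in hPARG cultures 1 to 3. The groups did not overlap, with a fold of 0.751 (95% interval 0.648 to 0.869) and FDR 0.468. DESeq2 called it, at adjusted p = 0.0108. It is also a target of other stress pathways.

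Tfrc, the transferrin receptor, had 423, 391 and 439 CPM in the control and 356, 329 and 346 in hPARG cultures, without overlap and with a fold of 0.823 (95% interval 0.704 to 0.963, FDR 0.999). Hilpda, a lipid droplet protein, had 22.7, 18.4 and 29.0 CPM against 19.1, 13.9 and 21.8, a fold of 0.781 (0.556 to 1.10). Pdk4, another pyruvate dehydrogenase kinase, had 12.3, 14.6 and 10.3 CPM against 9.17, 10.4 and 7.11, a fold of 0.718 (0.533 to 0.966, FDR 0.999), where Pdk1 had an estimate above 1. Pdk3, of the same family, was more abundant than Pdk1, at 47.1 against 15.4 RPKM, with a fold of 1.00 (0.870 to 1.15). Of the oxygen-sensing list, Os9, Egln2 and Elob had the smallest p-values and folds of 1.08 (0.922 to 1.26), 1.07 (0.913 to 1.26) and 1.12 (0.848 to 1.48). Vegfa, the angiogenic growth factor, was named after its values were seen, with 64.2, 60.4 and 71.7 CPM against 62.9, 57.0 and 64.2 and a fold of 0.938 (0.789 to 1.11).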

How the data were processed

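Poly(A) RNA of 6 cultures was sequenced as paired-end reads, which the authors mapped to the mouse genome (GRCm38, annotation release 96) in CLC Genomics Workbench 12.0. The authors deposited counts per gene, whole numbers without normalization, and RPKM values, scaled by their software for library total and length of the gene. The table's 12 per-sample columns of TPM and CPM and the authors' own fold changes, p-values and FDR values were not used. Coordinates and exon overlaps came from GENCODE M21 (GRCm38) and promoter windows from RefSeq (GRCm38.p6).

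Genes were kept with filterByExpr (minimum count 10), normalized by TMM and compared by the quasi-likelihood test of edgeR 4.0.16 under R 4.3.3, two-sided, with Benjamini-Hochberg adjustment over all 11509 tested genes. CPM values use TMM library sizes. Intervals are 95% intervals of the fit. The fits were tested on simulated data. DESeq2 1.42.0, other normalizations and filters, a length correction (splines with 4 degrees of freedom), the replicate block and each culture left out were alternatives. Leaving out both cultures numbered 2, the block with other normalizations and the summed enolase and aldolase rows were added after seeing the data. The row of Aldoa used is the first of 2 rows of that name.

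Cultures are separate wells by the labels, so p-values measure the spread between these wells. Precision is limited by 3 cultures per group and, for rare genes, by depth. Values per culture are given for members past FDR 0.05 with or without the block and for members without overlap. The same holds for the most abundant members of each group and the tested oxygen-sensing genes. Further genes past FDR 0.05 with or without the block also have them. For a list without such a gene, the 3 genes with the smallest p-values are given by fold and interval. Other genes were named after their values were seen. One gene of a further list is counted but not reported here by name. The members and lists were chosen with earlier results of these data known.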

Additional observations from a re-analysis of the deposited data

How the results depend on the processing

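No member passed FDR 0.05 with any alternative normalization, filter or test without the block, nor with any culture or both cultures numbered 2 left out. The labels do not say that a replicate number marks a shared batch or day. The deviations of same-numbered cultures correlated at 0.0963, 0.61 and 0.168, and control culture 1 correlated best with hPARG culture 3 (0.207), so whether the numbers pair the cultures is not settled and the block was kept as an alternative. With the replicate block, 330 of all genes passed in place of 10, with a biological coefficient of variation of 0.0615 in place of 0.148, and 1 member passed, P4ha1 (FDR 0.0417), so 1 of the other HIF targets. This was also 1 with the block and a length correction (326 of all genes), DESeq2 (261) or RLE size factors (320). With the block and library size only, 369 genes and 1 member passed, the glycolysis gene Slc16a1. In the block Pdk4 (FDR 0.0257), Hilpda (0.0378), Tfrc (0.0144) and Hmox1 (0.00301) passed too. Without the block, the genes called in all were 16 with no filter, 65 with the likelihood ratio test, 52 with DESeq2, 28 with the length correction and 40 without both cultures numbered 2, and 3 to 13 when 1 culture was left out. The cause of these differences was not tested.

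Signs turned for 22 of 46 single genes. Without both cultures numbered 2 the log2 fold changes were -0.03 for Slc2a1 and Ankrd37, 0.02 for Arnt, -0.01 for Egln1 and -0.02 for P4ha2. With library size only they were -0.02 for Pgk1 and -0.01 for Ankrd37 and Ero1l, and in the block with library size only -0.02 for Pgk1 and -0.01 for Egln1 and Ero1l. With the length correction they were -0.02 for Ankrd37 and, with and without the block, -0.01 for Hk1 and 0.02 for Pgam1. Leaving out 1 culture gave medians of -0.053 to 0.078 for oxygen-sensing genes and -0.017 to 0.21 for other HIF targets. The same gave log2 fold changes of -0.22 to 0.21 for Ankrd37, -0.11 to 0.11 for Arnt, -0.06 to 0.30 for Bnip3, -0.02 to 0.27 for Bnip3l, -0.08 to 0.12 for Egln1, -0.19 to 0.16 for Egln3, -0.05 to 0.24 for Eno2, -0.26 to 0.71 for Epas1, -0.04 to 0.10 for Ero1l, -0.13 to 0.07 for Hif1a and -0.13 to 0.20 for Hk1. They ran from -0.02 to 0.11 for Kdm3a, -0.01 to 0.19 for Ldha, -0.65 to 0.14 for Ldhb, -0.06 to 0.06 for Ndrg1, -0.04 to 0.13 for P4ha2, -0.48 to 0.02 for Pfkfb3, -0.10 to 0.06 for Pgam1, -0.09 to 0.11 for Pgk1, -0.08 to 0.03 for Pkm, -0.02 to 0.10 for Slc2a1 and -0.02 to 0.17 for Tpi1. The single genes outside these 22 kept their sign in all alternatives, among them P4ha1, Hk2, Pfkl, Pfkm, Pdk1 and Slc16a1.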
